A study of Mus musculus with 7 samples.

Results

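Stromal collagen and matrix genes were described across 7 cultured mammary gland arrays. The genes were 39 chosen by symbol, with earlier results of these data known: the fibrillar and other interstitial collagens, small proteoglycans, elastic fibre and cross-linking proteins, adhesive and matricellular glycoproteins, a procollagen processing protein and 3 surface proteins of fibroblasts. A probe was assigned to a gene through its RefSeq accession, which found 1 probe each for 33 of the 39 genes among 13971 named genes in all. No probe was matched to Col6a3, Col12a1, Vcan, Fbln5, Mfap4 or Thbs1, so no array values are given for these 6 genes. The promoter counts below include Vcan and Fbln5.

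The study asked how estrogen receptors α and β contribute to the growth and carcinogen response of mammary glands in mouse mammary organ culture (MMOC), in which whole glands are kept on rafts in serum-free medium. The thoracic glands came from females 4 weeks of age. The main arrays are 3: αERKO glands (Esr1 knockout, C57BL6/129SV background), glands labelled βERKO (Esr2 knockout, same background) and wild type (WT) C57 glands with 7,12-dimethylbenz[a]anthracene (DMBA), a polycyclic hydrocarbon carcinogen, all after 24 days of culture. They are called the arrays of the study below, since its text is about them. The other 4 arrays hold WT C57 glands after 24 days without DMBA, WT C57 glands after 10 days without DMBA, BALB/c glands after 24 days, and BALB/c glands after 24 days with vitamin D5. By the general protocol, glands had 10 days of growth promotion in insulin, prolactin, aldosterone and hydrocortisone, with 2 µg/ml DMBA on day 3 for 24 h, and then 14 days of regression in insulin alone. The titles name DMBA for 1 WT array and its absence for the other WT arrays. They name it neither for the knockouts nor for BALB/c glands, and give no dose of vitamin D5. The labels describe both a pretreatment of 1 µg estrogen with 1 mg progesterone for 9 days and one of 25 ng EGF with 1 mg progesterone for 5 days, and do not say which array had which. The text on the WT, αERKO and βERKO arrays names the EGF pretreatment and exposure to the carcinogen for all of them. The methods add that WT and βERKO glands bore mammary alveolar lesions and that αERKO glands, which lacked them, yielded no material, whereas another passage of the paper describes RNA of lesion-free αERKO glands on the arrays, and an array titled with the Esr1 knockout is used here. The pretreatment of the 4 other arrays is not given in the sources used here. RNA of 5 mice was pooled per group for the WT, αERKO and βERKO glands. The knockouts are germ-line disruptions, so every cell of the gland, stroma included, carries them.

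The stroma of the mammary gland is a fat pad crossed by fibroblasts, which secrete the proteins that surround ducts and vessels. Fibrillar collagens are made as procollagens, trimmed outside the cell and assembled into fibrils whose width is set in part by type V collagen and by small leucine-rich proteoglycans such as decorin and lumican. Elastic fibres consist of elastin laid on fibrillin microfibrils. Lysyl oxidases cross-link both collagen and elastin, and matricellular proteins such as periostin, tenascin C, SPARC and the thrombospondins modify how cells attach to the matrix. In the mammary gland this stroma is remodelled with ductal growth, in involution and around tumours.

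Each group had 1 array, so no difference given here has a replicate check and no test was run. Values are log2 levels, meaning log2 of a spot's intensity over the median intensity of the gene probes on that array, which lay between 39.1 and 53.0. A spot was good or near background as called by the scanner software, and between 68.4% and 74.2% of gene probes were good on an array. As a guide to measurement error, probes that share an accession were compared in pairs, and the SD of one probe's log2 ratio within such pairs, called the probe SD, is given for each comparison. It covers the hybridization of 1 RNA pool and not the spread between mice. In a knockout check, the Esr1 probe had a log2 level of -3.76, near background, in αERKO glands and of -1.02, on a good spot, in WT glands with DMBA. It was also near background on both WT arrays without DMBA (-3.96 and -9.45) and on the BALB/c array (-2.74), so it does not set the knockout apart from most wild type glands. On the vitamin D5 array it was good, at -0.74, and on the array labelled βERKO near background, at -1.72. Esr2 went against its label: its probe was good, at 0.87, in the glands labelled βERKO and near background in αERKO and WT DMBA glands. The Esr2 probe was also good on the WT array at 24 days without DMBA, at -0.55. It was near background on the 10-day WT array and both BALB/c arrays. The labelled tissue was checked with luminal epithelial markers, of which between 9 and 10 of 10 were good on every array. In RNA of whole glands, fewer cells of a type and less RNA per cell cannot be told apart.

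Across the 7 arrays, the matrix genes were highest on the 3 arrays of the study. In 22 of the 33 genes all 3 of these arrays lay above all 4 others, and in 0 genes did all 3 lie below. Among all named genes that were good on at least 1 array, 12.2% had all 3 above and 8.19% had all 3 below. All 3 also lay above the other 4 in 8 of 9 adipocyte and 7 of 8 endothelial markers, and in 0 of 10 luminal epithelial markers. Of the genes good on all 7 arrays, 19 of 22 had all 3 above, against 13.2% of all named genes good on all 7. Most of the overlap came with the array labelled βERKO. Without it, both remaining arrays of the study lay above the other 4 in 29 of 33 genes, against 16.9% of all named genes. The median log2 level of the 33 genes was 4.01 on the WT DMBA array, 3.41 on the αERKO array and 2.59 on the array labelled βERKO. It was 0.83 on the WT array without DMBA, 0.47 on the 10-day WT array, 0.33 on the BALB/c array and 1.40 with vitamin D5. The median over all named genes varied much less, between 1.08 and 1.54. The highest value lay on the αERKO array for 16 genes and on the WT DMBA array for 15. Of the 22 genes good on all 7 arrays, 40.9% and 54.5% were highest there, against 18.9% and 11.1% of all named genes. Sparc was highest on the array labelled βERKO and Fmod on the BALB/c array. The lowest value lay on the 24-day WT array without DMBA for 12 genes, on the 10-day WT array for 11, on the BALB/c array for 8 and on the vitamin D5 array for 2. The αERKO array was lowest for 42.4% of all named genes good on all 7 arrays and for 0 of these 22, and the 24-day WT array without DMBA for 6.15% and 36.4%. For the 10-day array these shares were 4.58% and 22.7%, for the BALB/c array 23.7% and 31.8%, and for the vitamin D5 array 8.77% and 9.09%.

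**Figure D1:**
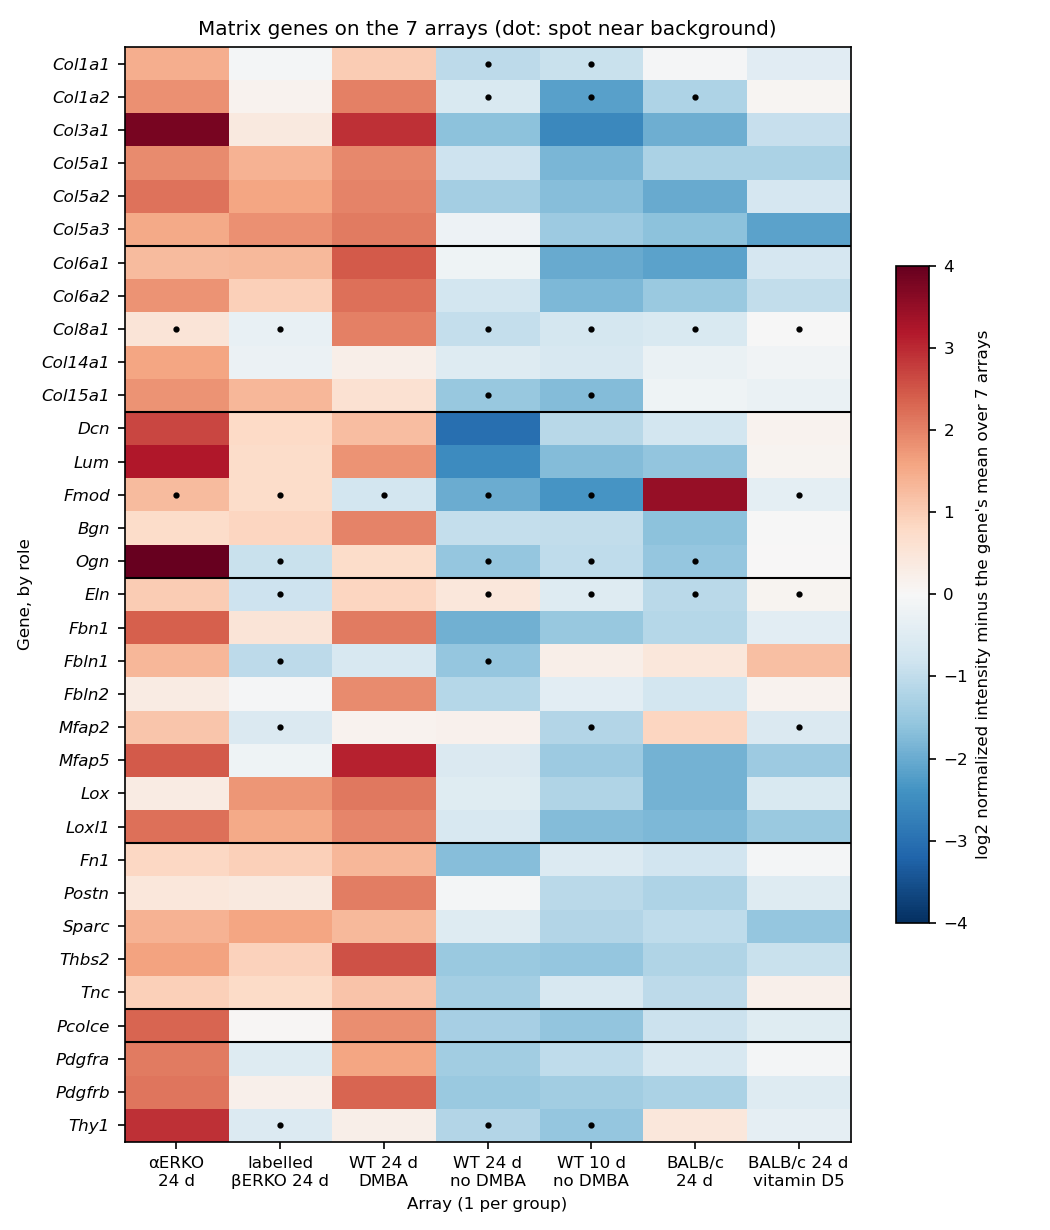
Log2 level of each of the 33 matrix genes on each array minus that gene's mean over the 7 arrays (colour), with genes in rows by role and arrays in columns, and a dot where the spot was near background. The 3 columns at the left, the arrays of the study, are mostly red and the 4 others mostly blue, and in 22 genes all 3 lie above all 4.

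The gap between the lowest of the 3 arrays and the highest of the other 4 shows how clean this separation was for a gene. Among the 22 genes that were apart, it ran from 0.06 for Col1a2 to 2.24 for Col5a2. Wide gaps were found for Col5a1 (2.22), Loxl1 (2.17), Sparc (1.82) and Thbs2 (1.81). The 11 genes that overlapped were Col1a1, Col8a1, Col14a1, Fmod, Ogn, Eln, Fbln1, Fbln2, Mfap2, Pdgfra and Thy1. Of these, 8 were near background on at least 1 array, and only Col14a1, Fbln2 and Pdgfra were good on all 7. Col14a1, Fbln2 and Pdgfra overlapped because the array labelled βERKO lay below 1 of the other 4, with gaps of -0.10, -0.19 and -0.44.

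The starts of 4 genes are printed for the comparison of WT glands with and without DMBA. Col3a1, Thbs2 and Fbn1 had the largest ratios on good spots among the genes with a promoter entry, and Col1a2, a chain of the main collagen, had the largest of the lower bounds. They are the 250 bases before the gene start in RefSeq's promoter table for the GRCm38.p6 build, 5′ to 3′ on the gene's strand, with capitals marking matches to the motifs searched.
Col3a1, chr1:45311288-45311537, plus strand: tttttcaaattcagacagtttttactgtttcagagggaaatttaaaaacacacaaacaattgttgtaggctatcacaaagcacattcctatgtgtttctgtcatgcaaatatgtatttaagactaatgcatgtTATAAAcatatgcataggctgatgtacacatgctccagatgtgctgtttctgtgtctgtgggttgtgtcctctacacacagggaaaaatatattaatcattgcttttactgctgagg
Col1a2, chr6:4505368-4505617, plus strand: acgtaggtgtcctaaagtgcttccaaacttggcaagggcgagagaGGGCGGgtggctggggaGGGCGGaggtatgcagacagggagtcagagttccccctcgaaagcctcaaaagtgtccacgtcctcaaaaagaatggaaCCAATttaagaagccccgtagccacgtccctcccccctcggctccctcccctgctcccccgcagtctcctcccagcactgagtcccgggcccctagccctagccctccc
Thbs2, chr17:14694263-14694512, minus strand: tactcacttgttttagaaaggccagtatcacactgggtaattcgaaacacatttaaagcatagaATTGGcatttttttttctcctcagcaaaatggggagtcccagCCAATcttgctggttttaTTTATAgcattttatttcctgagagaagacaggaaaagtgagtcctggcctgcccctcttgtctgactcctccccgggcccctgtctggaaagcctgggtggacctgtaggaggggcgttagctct
Fbn1, chr2:125506439-125506688, minus strand: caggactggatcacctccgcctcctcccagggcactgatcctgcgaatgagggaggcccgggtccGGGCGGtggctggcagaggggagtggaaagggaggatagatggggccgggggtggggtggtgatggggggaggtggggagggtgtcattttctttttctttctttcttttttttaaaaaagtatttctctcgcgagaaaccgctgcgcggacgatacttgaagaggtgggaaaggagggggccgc
The motifs were the CCAAT box (CCAAT), the TATA box (TATAAA), the GC box (GGGCGG), an AP-1 site (TGANTCA) and the core of the xenobiotic response element (GCGTG), each searched on both strands. Motifs were allowed to overlap. The 4 starts differed in their content. Col3a1 held a TATA box and no GC box, Fbn1 a GC box and no TATA box, Col1a2 a CCAAT box with a pair of GC boxes, and Thbs2 a pair of CCAAT boxes and a TATA box. The TATA matches began 117 bases before the gene start in Col3a1 and 126 bases before it in Thbs2. Matches were taken anywhere in the window, whatever their distance from the start. None of the 4 windows held the letters of the AP-1 site or of the xenobiotic response element core. The table held 30 windows for 24 of the 39 genes. A GC box lay in 16 of the 30 windows (53.3%), against 32.7% of all 32851 windows, and a TATA box in 20.0% against 12.4%. A CCAAT box lay in 20.0% against 33.8%, an AP-1 site in 3.33% against 6.75% and the xenobiotic core in 23.3% against 28.2%. These counts describe letters in the windows and were not related to the array values.

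Fibrillar collagens give tissue its tensile strength. Col3a1, which encodes the chain of type III collagen in loose connective tissue, had the widest range of the 33 genes, at 6.38 on the log2 scale. Its log2 level was 7.74 in αERKO glands, 6.84 in WT glands with DMBA and 4.31 in those labelled βERKO. On the other arrays it was 2.28 for WT at 24 days without DMBA, 1.36 for WT at 10 days, 1.96 for BALB/c and 3.00 for BALB/c with vitamin D5. All 3 arrays of the study were therefore above the rest, with the array labelled βERKO nearest to them. Type I collagen, the main collagen of most connective tissue, is built from Col1a1 and Col1a2 chains. The Col1a2 probe stood at 1.16, -0.53 and 1.35 on the αERKO, labelled βERKO and WT DMBA arrays, and at -0.59 on the vitamin D5 array. It was near background on the 3 other arrays. The Col1a1 probe was dim throughout, at 0.40, -1.12 and -0.02 on the 3 arrays of the study, -1.08 for BALB/c and -1.49 with vitamin D5, and near background on both WT arrays without DMBA. Its background-subtracted intensity in WT glands with DMBA was 50.7, below the median local background of 81, so ratios from this spot are imprecise.

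Type V collagen is a minor fibril component that starts fibril assembly, and each of its 3 chains varied little over the arrays of the study. Col5a2 had log2 levels of 4.35, 3.75 and 4.16 on the αERKO, labelled βERKO and WT DMBA arrays. On the other arrays it had 0.83 for WT at 24 days, 0.47 for WT at 10 days, 0.18 for BALB/c and 1.51 with vitamin D5. Col5a1 lay between 2.43 and 2.94 on the 3 arrays of the study and between -0.81 and 0.21 on the others. For Col5a3 these ranges were 5.56 to 6.12 and 1.91 to 3.83. No value of the first set overlapped the second in any of the 3 chains.

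Type VI chains form beaded filaments around cells. Among the other collagens, the type VI chains Col6a1 and Col6a2 were each higher on all 3 arrays of the study than on the rest. Col6a1 was at 2.56, 2.59 and 3.76 on the αERKO, labelled βERKO and WT DMBA arrays and between -0.83 and 1.12 on the others. Col6a2 was at 6.03, 5.19 and 6.44 and between 2.44 and 3.50 on the others, although its spot on the αERKO array was masked by the software. Col15a1, a collagen of the zone beneath basement membranes, was at 1.73, 1.26 and 0.56 on the 3 arrays, at -0.23 and -0.31 on the BALB/c arrays without and with vitamin D5, and near background on both WT arrays without DMBA. Col14a1, a fibril-associated collagen, differed from these. Its level was 1.99 on the αERKO array and 0.64 on the WT DMBA array, and 0.16 on the array labelled βERKO, within the range of -0.25 to 0.26 of the 4 others. Col8a1, a short-chain collagen, was good only on the WT DMBA array, at 0.15.

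Proteoglycans of the small leucine-rich family bind collagen fibrils. Decorin (Dcn) had log2 levels of 6.86, 5.01 and 5.45 on the αERKO, labelled βERKO and WT DMBA arrays. It had 1.19 on the WT array without DMBA, 3.11 at 10 days, 3.47 on the BALB/c array and 4.35 with vitamin D5. Lumican (Lum) had 4.47, 2.01 and 3.07 on the first 3 arrays, and -1.23, -0.46, -0.31 and 1.40 on the others in the same order. Both genes were thus lowest on the WT array at 24 days without DMBA and, of the 4 others, highest with vitamin D5. Biglycan (Bgn) followed a different order over the study's arrays, at 2.73, 2.85 and 3.97, with 1.04, 1.01, 0.33 and 1.96 on the others. Osteoglycin (Ogn) was at 3.23 on the αERKO array and -0.28 on the WT DMBA array, near background in the glands labelled βERKO. The vitamin D5 array, at -0.998, was the only other array on which it was good. Fibromodulin (Fmod) was good on 1 array only, that of BALB/c glands without vitamin D5, at -0.28, where its intensity was 41.5 against 6.9 or less on each of the 6 others.

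**Figure D2:**
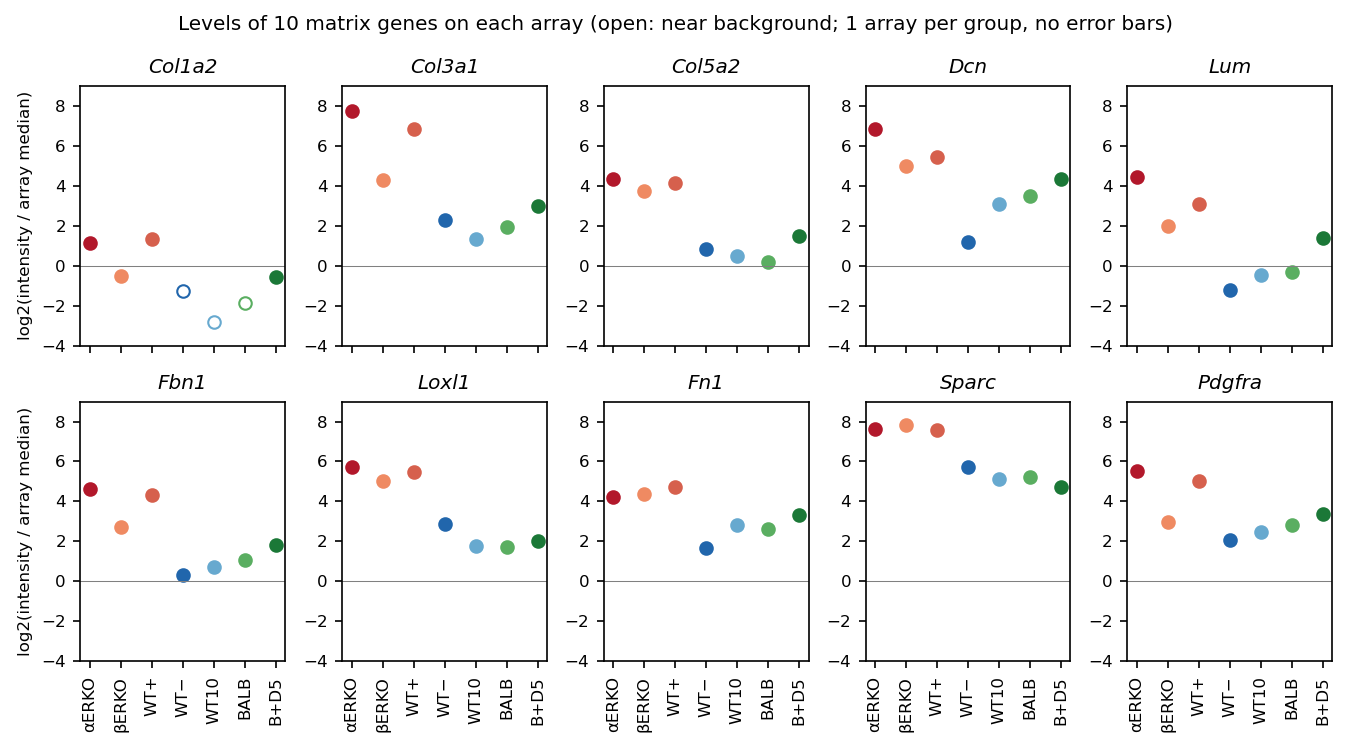
Log2 level (log2 of intensity over the array median) of 10 matrix genes on the 7 arrays, 1 point per array and open where near background; WT+ is WT with DMBA for 24 days, WT− WT without DMBA for 24 days, WT10 WT for 10 days, BALB is BALB/c and B+D5 BALB/c with vitamin D5. The 10 genes were picked by hand. In 9 of the 10 genes the 3 reddish points of the study lie above the 4 others, where 22 of all 33 matrix genes have this order. In Pdgfra the array labelled βERKO (2.95) lies below the vitamin D5 array (3.38).

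Elastic fibre genes split by abundance of signal. Fibrillin 1 (Fbn1), the backbone of microfibrils, was at 4.60, 2.72 and 4.31 on the αERKO, labelled βERKO and WT DMBA arrays, and at 0.31, 0.71, 1.09 and 1.80 on the WT, 10-day WT, BALB/c and vitamin D5 arrays. Mfap5, a microfibril glycoprotein, was at 4.96, 2.35 and 5.60, and at 1.92, 1.07, 0.62 and 1.07 on the others. In both, the array labelled βERKO lay between the remaining pair of the study and the 4 others. Lysyl oxidase (Lox) had another order, at 2.67, 4.10 and 4.45, with 1.86, 1.16, 0.47 and 1.75 on the others, so that here the αERKO array was the lowest of the 3. The lysyl oxidase-like enzyme Loxl1 was at 5.70, 5.03 and 5.48, and between 1.70 and 2.86 on the others. Fibulin 2 (Fbln2), which links microfibrils to other matrix proteins, stood out on the WT DMBA array at 4.01 and lay between 0.96 and 2.42 on the rest. Elastin (Eln), fibulin 1 (Fbln1) and Mfap2 were dim, good on 2, 5 and 4 of the 7 arrays, with log2 levels of at most -0.85, 0.75 and 0.08.

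All 5 adhesive and matricellular glycoproteins were good on every array and separated the 3 arrays of the study from the others. Sparc, a collagen-binding protein that many stromal cells secrete, was at 7.64, 7.84 and 7.57 on the αERKO, labelled βERKO and WT DMBA arrays. It was at 5.75, 5.10, 5.24 and 4.71 on the WT, 10-day WT, BALB/c and vitamin D5 arrays. Thbs2, a thrombospondin of fibroblasts, was at 3.50, 2.82 and 4.45, and between 0.36 and 1.01 on the others. Fibronectin (Fn1), on which collagen fibrils assemble, was at 4.23, 4.36 and 4.72, and between 1.68 and 3.31 on the others. Postn was at 3.79, 3.76 and 5.39 against 2.12 to 3.28, and Tnc at 4.80, 4.61 and 4.98 against 2.48 to 4.06. For Sparc, Fn1 and Tnc the 3 arrays of the study lay within 0.49 of each other.

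Pcolce, the enhancer of the protease that trims procollagen, was at 5.00, 2.71 and 4.51 on the αERKO, labelled βERKO and WT DMBA arrays and between 1.10 and 2.18 on the others. The receptors for platelet-derived growth factor mark fibroblasts and, for Pdgfrb, also pericytes. Pdgfra was at 5.53, 2.95 and 5.03 on the study's arrays, and at 2.06, 2.46, 2.81 and 3.38 on the WT, 10-day WT, BALB/c and vitamin D5 arrays. Pdgfrb was at 3.41, 1.48 and 3.59, and between -0.21 and 0.78 on the others. In the glands labelled βERKO both receptors lay nearer to the 4 other arrays than to the remaining pair of the study. Thy1, a surface protein of fibroblasts and T cells, was at 2.56 on the αERKO array, -0.14 on the WT DMBA array and 0.08 on the BALB/c array, and near background on 3 arrays, that labelled βERKO among them.

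WT C57 glands with and without DMBA at 24 days were the only pair of arrays whose titles differ in the carcinogen alone. Whether both had the same pretreatment is not given, so DMBA and pretreatment cannot be told apart. Matrix genes were higher with DMBA almost throughout: 28 of 32 genes counted (87.5%) were over 2-fold higher, where 11.6% of all named genes were, and 0 were over 2-fold lower, where 7.79% of all named genes were. A gene was counted where its spot was good on either array of the pair. The median log2 ratio of the 32 genes was 2.68, and that of all named genes was -0.15. Among the 24 genes good on both arrays, 22 were over 2-fold higher, with a median of 2.96. Of all named genes good on both, 9.24% were, with a median of -0.16. The ratio was 4.56 for Col3a1, 4.30 for Lum, 4.26 for Dcn, 4.03 for Thbs2, 4.00 for Fbn1 and 3.80 for Pdgfrb, and the smallest over 2-fold on both good spots was 1.82, for Sparc. The probe SD was 0.308, which any ratio over 2-fold exceeds by construction.

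By role, 6 of 6 fibrillar collagens, 4 of 4 proteoglycans, 5 of 5 adhesive glycoproteins and 3 of 3 surface proteins were over 2-fold higher with DMBA. So were Pcolce, 4 of 5 other collagens and 5 of 8 elastic fibre and cross-linking genes. The 4 genes not over 2-fold were Col14a1 (0.77), Mfap2 (-0.03), and Fbln1 and Eln, whose spots without DMBA were near background and which were at least 1.31-fold and 1.34-fold higher. Where the spot without DMBA was near background, only a bound can be given: Col1a2 was at least 6.18-fold higher, Col15a1 at least 4.42-fold, Col8a1 at least 3.40-fold, Col1a1 at least 3.03-fold, Thy1 at least 2.67-fold and Ogn at least 2.53-fold. The choice of comparison array mattered for some genes. Dcn, Lum, Fbn1 and Fn1 were lower on the WT array at 24 days without DMBA than on any other array, whereas Col6a1, Postn, Loxl1 and Sparc were higher there than on the 3 remaining arrays outside the study.

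**Figure D3:**
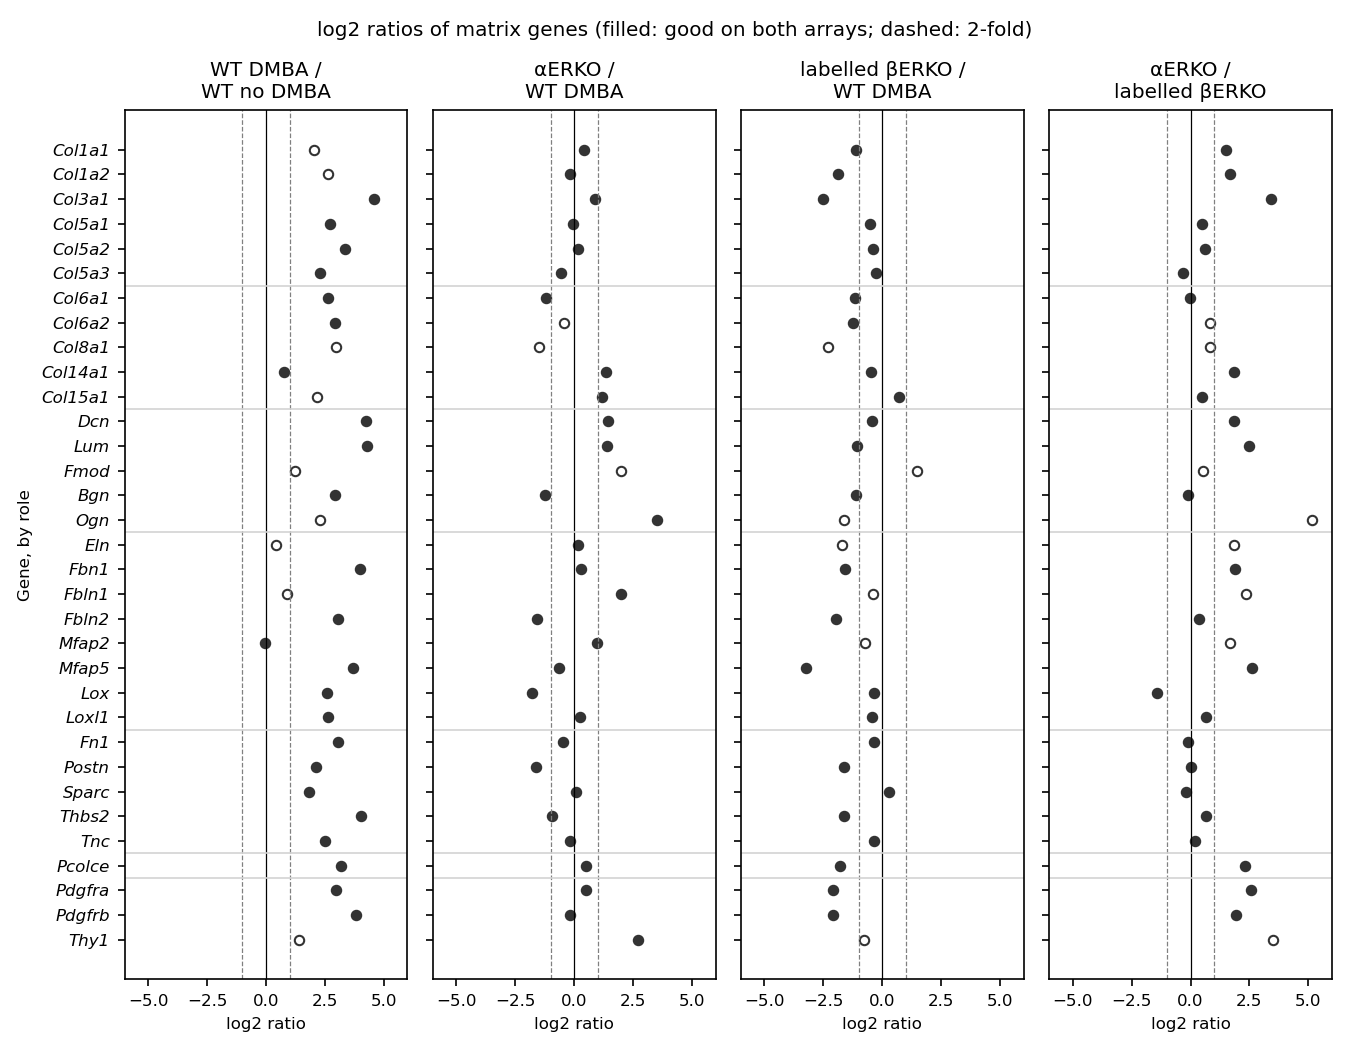
Log2 ratio of each matrix gene in 4 comparisons (1 array over another), with genes in rows by role; filled points were good on both arrays, open points were near background or masked on at least 1, and dashed lines mark 2-fold. With DMBA nearly all points lie right of the 2-fold line, with αERKO against WT they scatter on both sides of 0, and with the array labelled βERKO against WT 18 of 32 counted genes lie left of it.

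Genes of neighbouring pathways were less uniform in the same comparison. Of 104 genes counted in 6 hand-written lists, 51 were over 2-fold higher with DMBA and 1 lower, with a median log2 ratio of 0.97. Other interstitial matrix genes gave 21 of 36 higher, basement membrane genes 9 of 16, collagen turnover genes 7 of 11 and mesenchymal transcription factors and surface proteins 6 of 12. Genes for the biosynthesis and maturation of collagen, such as the prolyl and lysyl hydroxylases, gave 7 of 25 higher and 1 lower, at a median of 0.43. Among collagen receptors 1 of 4 was higher.

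Markers of some other cell types moved with the matrix genes, and those of others did not. With DMBA, 7 of 7 endothelial, 5 of 5 macrophage and 6 of 9 adipocyte markers were over 2-fold higher, and 4 of 10 luminal epithelial markers were lower with 0 higher. Basal epithelial markers gave 3 of 7 higher and 2 lower, and skeletal muscle markers 1 of 7 higher and 1 lower. Lymphocyte markers gave 0 of 4 higher and 1 lower. The summed level of the 8 endothelial markers, as log2 of summed normalized intensity, was 6.20 with DMBA and 3.88 without, 6.002 in αERKO glands, 4.66 in those labelled βERKO and between 2.35 and 2.85 on the 3 other arrays. That of the 10 luminal markers was 9.37 with and 10.31 without DMBA, between 8.82 and 9.76 on the knockout arrays and between 9.89 and 10.13 on the other arrays. The part of these cells in the matrix difference was not tested.

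The αERKO array was compared with the WT DMBA array to describe glands that lack ERα. The matrix genes as a group stood close to WT, and single members lay far apart in both directions. Over 2-fold higher in αERKO were 7 of 32 genes (21.9%, against 10.2% of all named genes), and 6 of 32 were over 2-fold lower (18.8%, against 15.2%). With normexp background correction 4 were higher and 6 lower, where 554 and 1098 of 12189 named genes were. The median log2 ratio was 0.12, and -0.17 over all named genes. With normexp these medians were -0.08 and -0.175. None of the 6 fibrillar collagens passed 2-fold, and their ratios ran from -0.56 for Col5a3 to 0.90 for Col3a1. The higher genes were Ogn (3.51), Thy1 (2.70), Fbln1 (1.98), Dcn (1.42), Lum (1.40), Col14a1 (1.35) and Col15a1 (1.17). Among them were 3 of the 4 proteoglycans counted, while the fourth, Bgn, was lower.

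The genes lower in αERKO than in WT were Lox (-1.78), Postn (-1.60), Fbln2 (-1.59), Bgn (-1.24) and Col6a1 (-1.19), and Col8a1 was at least 2.85-fold lower. The probe SD was 0.598, which any ratio over 2-fold exceeds by construction. It rests on probes good on both arrays, and Col8a1 was near background in αERKO. Of the pathway genes, 21 of 104 were higher and 24 lower. Collagen turnover genes gave 0 of 11 higher and 7 lower, and other interstitial matrix genes 13 of 36 higher and 8 lower. Among pathway genes on spots good on both arrays, the largest ratios were those of Ltbp4 (5.59), a binding protein of latent TGF-β, and Cilp (3.54), a cartilage matrix protein, and on the lower side Timp1 (-4.43), an inhibitor of matrix metalloproteinases, and podoplanin (Pdpn, -2.56). Timp1 had a log2 level of 0.53 on the αERKO array and of at least 2.06 on each of the 6 others.

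Skeletal muscle markers set the αERKO array apart from the rest. All 12 were over 2-fold higher than in WT, and their summed log2 level was 11.31 there, 5.74 in the glands labelled βERKO and 3.32 to 3.62 on the other 5 arrays. In the same comparison 5 of 5 macrophage, 5 of 10 luminal and 5 of 7 basal epithelial markers were lower, and 4 of 6 lymphocyte markers were higher, with Cd3e near background on every array. How far these cells and tissues account for single matrix genes was not tested.

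The array labelled βERKO was compared with the same WT DMBA array, so both knockout comparisons share 1 control. Here the matrix genes were lower or alike: 0 of 32 were over 2-fold higher, where 6.62% of all named genes were, and 18 of 32 (56.2%) were over 2-fold lower, where 7.29% of all named genes were. The median log2 ratio was -1.11, against 0.14 over all named genes. With normexp background correction these medians were -0.57 and 0.03. The ratio was -3.24 for Mfap5, -2.53 for Col3a1, -2.11 for Pdgfrb, -2.09 for Pdgfra, -1.96 for Fbln2, -1.88 for Col1a2 and -1.80 for Pcolce. The probe SD was 0.367. Near background on the array labelled βERKO, Col8a1 was at least 3.40-fold lower and Ogn at least 2.53-fold lower, while Eln, counted by its measured ratio, had a bound of 1.53-fold. Genes within 2-fold included the 3 chains of type V collagen, between -0.51 and -0.26, and Sparc (0.28), Lox (-0.35), Fn1 (-0.36), Tnc (-0.36) and Dcn (-0.43). Col15a1 had the highest ratio of those counted, at 0.70.

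The pathway lists were closer to WT on this array: 7 of 103 genes were over 2-fold higher and 17 lower, 11 of the lower ones among 35 other interstitial matrix genes. Spon1 (-2.58), a matrix protein with spondin domains, and Lama1 (-2.19), a laminin chain, had the lowest ratios on good spots. The type IV collagen chain Col4a6 (2.44) and Ltbp1 (1.55) had the highest. Endothelial markers were lower in 6 of 7, macrophage markers in 4 of 5 and adipocyte markers in 3 of 9, and 6 of 8 skeletal muscle markers were higher. The part of these in the matrix genes was not tested, and the Esr2 signal of this array goes against its genotype label.

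Set against each other, the knockout arrays gave 16 of 31 genes (51.6%) over 2-fold higher in αERKO, where 11.8% of all named genes were higher. Only Lox was over 2-fold lower (-1.44), where 20.2% of all named genes were lower. These ratios use the same arrays as the comparisons with WT and add no further sample. The median was 1.52, against -0.30 over all named genes. Over the 25 genes good on both arrays it was 0.67, against -0.302 for all named genes good on both. With normexp it was 0.57, against -0.205. Col3a1 had the largest ratio on good spots, 3.43, followed by Mfap5 (2.61), Pdgfra (2.58), Lum (2.46) and Pcolce (2.29), with a probe SD of 0.562. Near background on the array labelled βERKO, Ogn was at least 28.9-fold and Thy1 at least 11.2-fold higher in αERKO, and Fbln1 and Mfap2 at least 5.14-fold and 3.19-fold, while Eln, also counted, had a bound of 1.71-fold. By contrast 5 of 5 adhesive glycoproteins stayed within 2-fold, between -0.20 for Sparc and 0.67 for Thbs2. Of the pathway genes, 28 of 102 were higher and 20 lower, with Spon1 (4.35) and Ltbp4 (4.21) at one end and Timp1 (-3.90) and Pdpn (-3.23) at the other. Skeletal muscle markers were higher in 12 of 12, endothelial in 4 of 7, adipocyte in 4 of 9 and lymphocyte in 4 of 6, and luminal epithelial markers were lower in 7 of 9. The part of these cells was not tested.

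**Figure D4:**
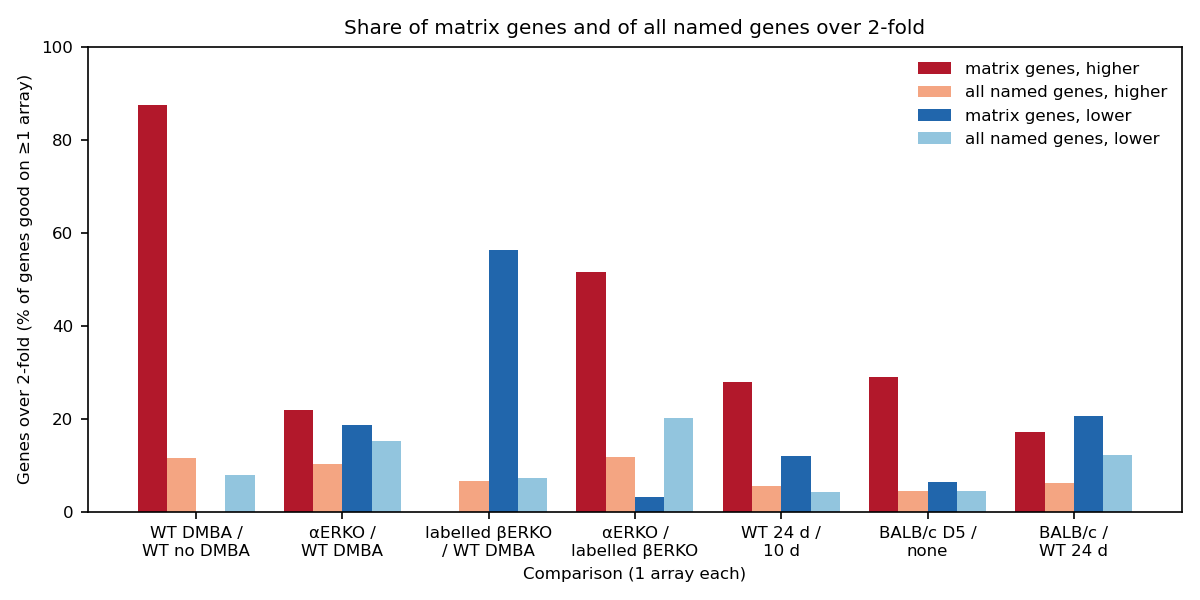
Share of genes over 2-fold higher (red) and lower (blue) in each comparison of 2 arrays, in percent of genes good on at least 1 of them, for the matrix genes (dark) and for all named genes (light). The matrix genes reach 87.5% higher with DMBA against 11.6% of all named genes, and 56.2% lower on the array labelled βERKO against 7.29%.

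Culture time was compared between the WT arrays without DMBA at 24 and at 10 days, after and before the regression phase. Of 25 matrix genes counted, 7 were over 2-fold higher at 24 days, where 5.47% of all named genes were, and 3 were lower, where 4.34% were. Scaling to the 75th percentile gave 4 higher and 3 lower, and normexp 1 each way. Over 11887 named genes, 650 higher and 516 lower became 588 and 553 with that scaling, and 131 and 151 with normexp. The median log2 ratio was 0.24, and 0.16 over all named genes. The type VI chains Col6a1 (1.84) and Col6a2 (1.06), the type V chains Col5a3 (1.24) and Col5a1 (1.02), Loxl1 (1.08) and Postn (1.00) were higher on good spots, and Mfap2 at least 1.85-fold higher. Dcn (-1.92) and Fn1 (-1.16) were lower, and Fbln1 at least 2.45-fold lower. The probe SD was 0.229. Of the pathway genes, 13 of 96 were higher and 13 lower. Adipocyte markers were over 2-fold higher at 24 days in 7 of 9, macrophage markers in 3 of 5 and endothelial markers in 3 of 7. Of 7 basal epithelial markers, 4 were over 2-fold lower and 2 higher, with a median of -1.29. The part of these cells in the ratios was not tested.

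Vitamin D5, a form of vitamin D, was compared with culture without it in BALB/c glands. Of 31 matrix genes counted, 9 were over 2-fold higher with it, where 4.41% of all named genes were, and 2 were lower, where 4.39% were. With normexp background correction, which shrinks ratios of dim spots, 2 were higher and 0 lower, where 75 and 26 of 12177 named genes were. The median log2 ratio was 0.69, against 0.16 over all named genes. With normexp these medians were 0.41 and 0.12. On good spots the higher genes were Lum (1.70), Bgn (1.63), Col6a1 (1.46), Col5a2 (1.33), Lox (1.28), Tnc (1.27) and Col3a1 (1.04). Col1a2 was at least 2.31-fold and Ogn at least 1.74-fold higher. Both lower genes, Fmod and Mfap2, were near background with vitamin D5 and were at least 3.05-fold and 2.66-fold lower. The probe SD was 0.227. Among the markers, 0 of 8 adipocyte, 0 of 8 endothelial and 0 of 3 macrophage markers were over 2-fold higher. In the other lists 2 of 10 luminal, 1 of 7 basal and 2 of 9 skeletal muscle markers were higher. Over 2-fold lower were 1 adipocyte, 1 endothelial, 1 basal and 2 skeletal muscle markers. The median of the luminal markers was 0.44. Of the pathway genes, 12 of 97 were higher and 5 lower. The part of the marked cells was not tested.

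BALB/c and C57 glands without a named treatment were compared at 24 days. Of 29 matrix genes counted, 5 were over 2-fold higher in BALB/c, where 6.22% of all named genes were, and 6 were lower, where 12.2% were. Scaling to the 75th percentile turned this split to 8 higher and 4 lower, and normexp gave 1 each way. Over 12113 named genes, 753 higher and 1472 lower became 954 and 870 with that scaling. With normexp they became 163 and 406. The median log2 ratio was 0.27, and -0.31 over all named genes. On the 24 genes good on both arrays it turned to -0.05, with 1 higher and 6 lower. Of all named genes good on both, 2.55% were higher and 9.89% lower, with a median of -0.325. Dcn (2.28) was higher on good spots, and Thy1, Fbln1, Col15a1 and Fmod were at least 3.10-fold, 2.85-fold, 2.55-fold and 2.54-fold higher. The lower genes were Col6a1 (-1.95), Col5a3 (-1.43), Lox (-1.40), Mfap5 (-1.30), Postn (-1.16) and Loxl1 (-1.16). The probe SD was 0.327. Of the pathway genes, 10 of 95 were higher and 17 lower. Macrophage markers were over 2-fold lower in 5 of 5, adipocyte in 7 of 9, endothelial in 4 of 8 and luminal in 3 of 10. Basal epithelial markers were higher in 2 of 7 and endothelial markers in 1 of 8. The part of these cells was not tested. Since the BALB/c title does not say whether DMBA was given, strain and treatment cannot be told apart here.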

How the data were processed

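Pooled RNA of cultured mammary glands was hybridized to 7 CodeLink Mouse Whole Genome arrays, 1 per group, a 1-colour oligonucleotide platform. The deposited intensity of a spot was, per the file headers and values, its mean minus the median of the background around it. The authors' CodeLink Expression Analysis software had called each spot's quality, and a normalized intensity was deposited beside the raw one. The series table names no probes and was not used.

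Intensities were divided by the median of the 34967 gene probes of their array. Values at or below 0 (between 246 and 344 per array) were set to the smallest positive value of that array before log2 was taken. The median local background lay between 80 and 83, so dim probes are imprecise, and with 1 array per group the array number limits precision. RefSeq (GRCm38.p6) named 14763 of the 15553 probes that carry a RefSeq accession, giving 13971 symbols. Where a gene had several probes, that with the greatest mean log2 level was used. For every comparison, genes over 2-fold were counted among those good on either array, and no test was possible. Where a probe was near background on 1 of both arrays, the counts used the measured ratio and the text gives a bound, taken from the larger of its own level there and the lowest good level of that array. Groups came from the sample labels. The genes, the pathway and marker lists and the comparisons were chosen with earlier results of these data known. Named are all members, the 2 pathway genes each way with the largest ratio in each comparison of the study's arrays among spots good on both, and marker genes near background on every array. Promoter sequences came from RefSeq's table.

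Alternatives were quantile normalization, scaling to the 75th percentile, normexp (offset 50), the deposited normalized intensity, spots good on both arrays, a 3-fold threshold and a median over the probes of a gene. Counting was tested on simulated data. Python 3.11.15, pandas 2.3.3, R 4.3.3 and limma 3.58.1 were used.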

Additional observations from a re-analysis of the deposited data

How the results depend on the processing

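Each gene had 1 probe, so a median over probes could not differ and is left out here. Of the 124 other alternative values, 100 stayed within 1.5 times the count or within the probe SD of the median, and 24 moved. Medians close to 0 changed sign in 2 cases, from 0.12 to -0.08 for αERKO against WT with normexp and from 0.27 to -0.05 for BALB/c against C57 on spots good on both arrays. Quantile normalization and scaling to the 75th percentile each gave 4 genes higher at 24 than at 10 days, and the percentile gave 8 higher in BALB/c. With normexp, whose offset shrinks ratios of dim spots by construction, 4 genes were higher in αERKO than in WT. The medians became -0.57 for the array labelled βERKO against WT, 0.57 for αERKO against it, 2.36 with DMBA and 0.41 with vitamin D5. Normexp also gave 1 gene higher and 1 lower at 24 than at 10 days, 2 higher and 0 lower with vitamin D5, and 1 higher and 1 lower in BALB/c. The counts over all named genes fell as well and are given with each of these comparisons. Counting spots good on both arrays, fewer genes by construction, gave a median of 0.67 for αERKO against the array labelled βERKO, 0 genes lower with vitamin D5 and 1 higher in BALB/c. At 3-fold, stricter by construction, 3 genes were higher and 3 lower in αERKO than in WT, 0 lower than on the array labelled βERKO, 1 higher at 24 days, 2 higher and 1 lower with vitamin D5, and 1 lower in BALB/c. The 22 genes apart between the study's arrays and the others were 21 to 24 under the other scalings and normexp, and 29 without the array labelled βERKO, an alternative chosen after seeing the data.

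The median of all named genes moved by over 0.1 with the scaling in 4 comparisons: at the 75th percentile from -0.17 to -0.04 for αERKO against WT, from -0.30 to -0.12 for αERKO against the array labelled βERKO, from 0.16 to 0.03 with vitamin D5 and from -0.31 to -0.10 in BALB/c. The ratio of Fmod with DMBA, near background on both arrays, changed sign with normexp and is not counted. No paired analysis was possible because each group has 1 array, and leaving out a replicate was not possible for the same reason. Low signal over background limits Col1a1, Col1a2, Col8a1, Col15a1, Eln, Fmod, Fbln1, Mfap2, Ogn and Thy1.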
